A study of Mus musculus with 15 samples.

Results

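Brown fat of 5 mice given an antibody that switches on the FGFR1/KLB receptor was compared with brown fat of 5 control mice, 10 of the 15 arrays in the series. The 10 arrays were taken by sample title, aFGFR1/KLB 41 to 45 and control 31 to 35, and the other 5 arrays, of mice given FGF21, served to estimate the spread and for 1 closing comparison. All 15 mice were adult male wild-type C57BL/6N animals on a high-fat diet, and the interscapular depot was taken at day 5. The antibody mice had received bFKB1, an agonistic antibody to the FGFR1/KLB complex, in a lone intraperitoneal injection of 10 mg/kg. The FGF21 mice had received human FGF21 at 1 mg/kg in 2 daily injections, or 2 mg/kg per day. For the controls the labels name no injected substance, so the injection itself is not known to be matched. RNA came from whole tissue pieces that hold vessels, nerves, immune cells and some muscle besides adipocytes. In such bulk RNA, fewer cells of a type and less RNA per cell cannot be told apart.

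FGFR1 is a receptor tyrosine kinase, and beta-klotho (KLB) is the co-receptor that lets it bind FGF21, a hormone of liver and adipose tissue. The activated complex signals through Ras and the ERK kinases, and ERK induces its own brakes, the Dusp phosphatases and the Sprouty and Spred proteins. Brown fat burns fatty acids for heat through the mitochondrial uncoupling protein UCP1, under sympathetic nerves that act through beta-adrenergic receptors and cyclic AMP. Both FGF21 and antibodies of this kind are known to raise energy expenditure and to induce thermogenic genes in adipose tissue.

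The tissue carried the transcripts that define it. By mean intensity Ucp1 ranked 8 among the 13174 genes tested. On the log2 scale used throughout it read 14.59, 14.61, 14.52, 14.56 and 14.67 on the control arrays and 14.76, 14.81, 14.77, 14.82 and 14.72 on the antibody arrays. Cidea, a lipid droplet protein typical of brown adipocytes, lay at 14.25 to 14.52 in controls and 14.44 to 14.57 with the antibody, and the adipokine Adipoq at 14.06 to 14.23 in controls and 14.07 to 14.23 with the antibody. The receptor was transcribed in both groups, with Fgfr1 at 9.0 to 9.4 in controls and 8.94 to 9.31 with the antibody and Klb at 8.98 to 9.38 in controls and 8.68 to 9.12 with the antibody.

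Markers of other cell types differed widely between arrays. The ranges of their list means overlapped between the groups, except for the 7 B and plasma cell markers, at 6.61 to 6.99 in controls and 6.34 to 6.5 with the antibody. The mean of 28 macrophage markers was 8.83, 7.92, 8.0, 10.38 and 9.01 on the 5 control arrays and 8.52, 8.66, 9.26, 8.83 and 9.01 on the 5 antibody arrays, with control 34 highest. Control 34 was also highest in the mean of 45 collagen and matrix genes, at 10.39 where the other 9 arrays lay between 8.82 and 9.26. The mean of 30 skeletal muscle markers was 9.63, 7.88, 9.7, 8.7 and 8.5 in controls and 10.22, 5.84, 7.73, 5.66 and 12.33 with the antibody, so that antibody arrays were both the highest (45) and the lowest (42 and 44). Arrays of a group correlated across genes at 0.943 to 0.996 among controls (median 0.99) and at 0.956 to 0.996 among antibody arrays (median 0.982). Pairs of a control and an antibody array correlated nearly as highly, at 0.947 to 0.991 (median 0.979). The part that these cell types play in the results was not tested. Counts of list members called in the fit without control 34 stand beside the lists where they differ.

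**Figure D1:**
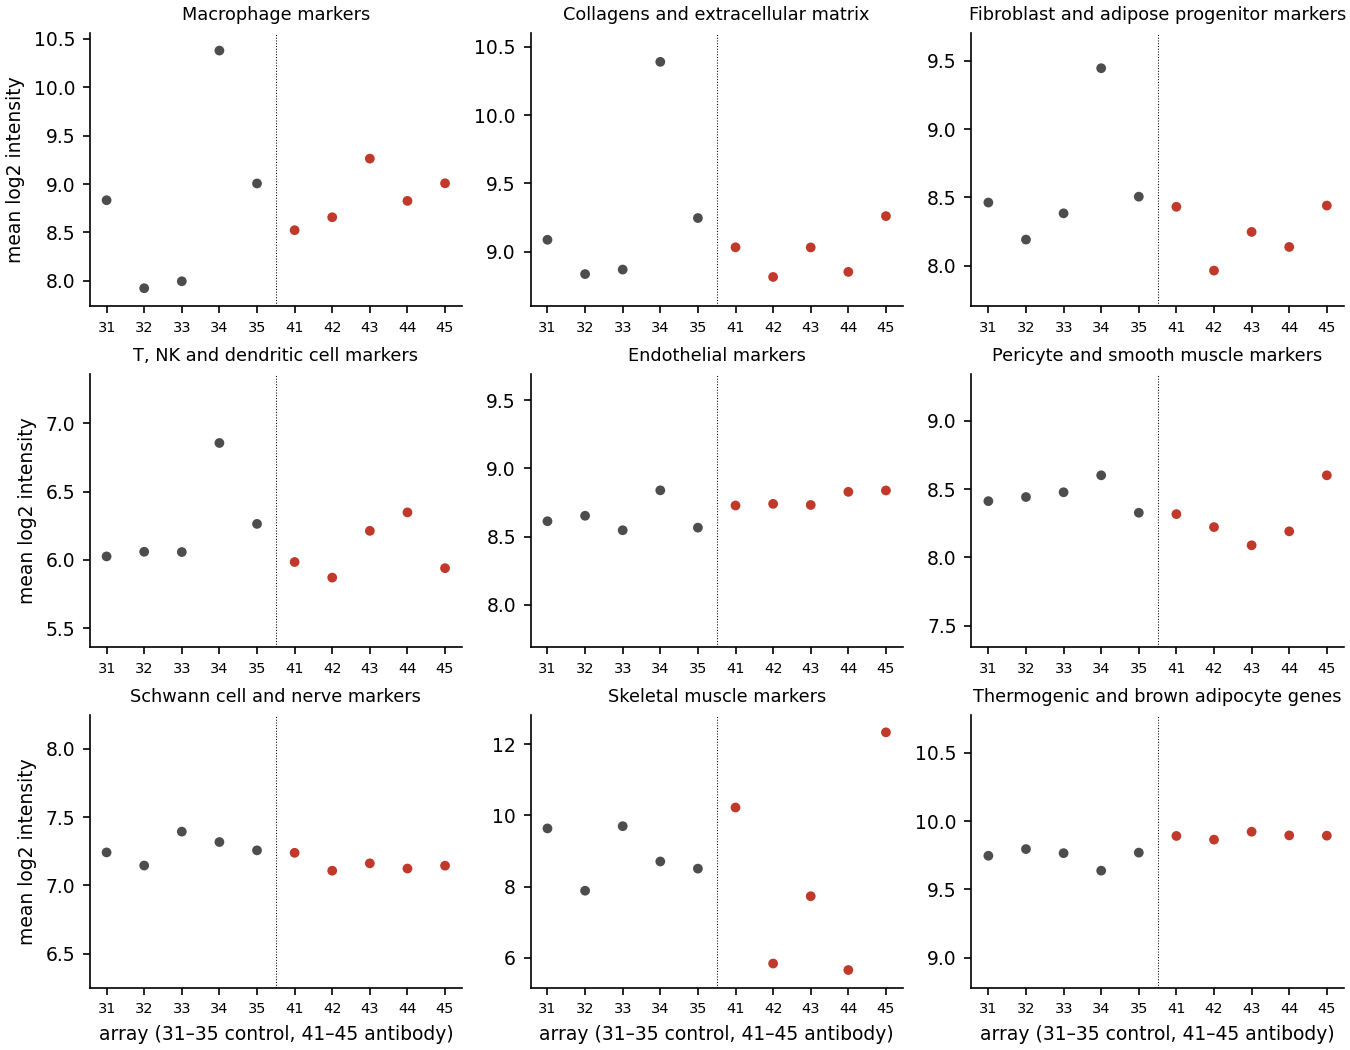
Mean log2 intensity (vertical axes) of 8 marker lists of other cell types or matrix and of the thermogenic list, for each array (horizontal axes, controls in grey and antibody in red). Control 34 stands above the other controls in macrophage, collagen, fibroblast and T cell lists, muscle markers spread from 5.66 to 12.33 among antibody arrays, and the thermogenic list lies higher on every antibody array than on any control array.

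The antibody changed 682 of 13174 genes, 5.18% of those tested (limma, Benjamini-Hochberg adjusted p under 0.05). Of these 354 rose, 2.69% of all genes, and 328 fell, 2.49%. The median log2 fold change of all genes was −0.019, and the median standard error 0.0971. Most changes were small: 131 rises and 83 falls reached 1.5-fold, 40 rises and 10 falls reached 2-fold, and only 3 genes, Sgk2, Mfsd2a and Elovl3, reached 4-fold. The median rise was 0.48 and the median fall −0.42. The 5 antibody values lay entirely above or below the 5 control values for 568 of the 682 genes, where 8.61% of all tested genes had no overlap. The share of called genes grew with signal, from 1.73% of the 3294 dimmest genes to 8.38% of the 3294 brightest. Of those brightest genes 184 rose and 92 fell.

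The number of calls rested heavily on single arrays. Without control 34 there were 1140 calls, 483 higher and 657 lower. There were 454 without control 31, 365 without 32, 408 without 33 and 468 without 35, and 386 without antibody array 41, 336 without 42, 421 without 43, 372 without 44 and 572 without 45. Among the 682 genes, 287 passed in each of these 10 fits, 159 higher and 128 lower. Centring the arrays on ribosomal protein genes moved the median of all genes to 0.082 and left 181 calls, of which 82.3% were rises against 51.9% as reported. Of the 160 called genes named below, it ended 50 of 100 rises and 41 of 60 falls. The mean of the 41 ribosomal protein genes was 12.36 on control 34. It lay at 11.94 to 12 on the other controls and at 11.89 to 12.03 with the antibody.

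**Figure D2:**
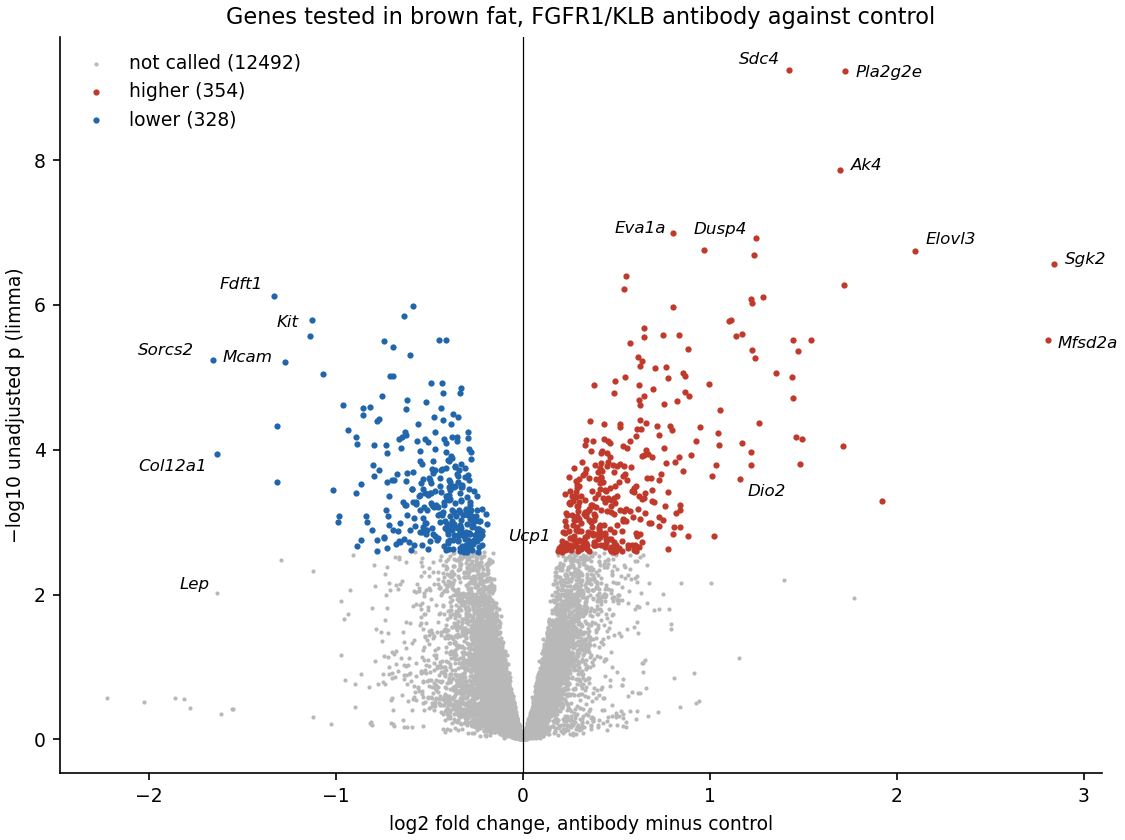
Log2 fold change of antibody over control (horizontal axis) against the −log10 of limma's unadjusted p (vertical axis) for the 13174 genes tested. Genes that rose are red (354), genes that fell are blue (328) and the rest grey. Sgk2 at 2.84 and Mfsd2a at 2.81 lie farthest right, Pla2g2e and Sdc4 have the smallest p, and Lep at −1.64 is among the large differences that did not pass.

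The largest rise was that of Sgk2, a kinase of the serum and glucocorticoid-regulated family. Its log2 intensity was 6.05, 6.2, 5.72, 6.53 and 7.06 on the control arrays and 9.43, 9.42, 9.15, 9.5 and 8.28 on the antibody arrays. The groups were far apart, with aFGFR1/KLB 45 the lowest treated array, and the log2 fold change was 2.84 ± 0.32 (± SE, n = 5 per group, adjusted p = 0.000401), a 7.18-fold rise. Mfsd2a, which carries lysophosphatidylcholine into cells, read 5.06, 5.25, 5.37, 4.96 and 5.5 on the control arrays and 7.94, 7.85, 8.08, 8.29 and 8.01 on the antibody arrays. Its control values lay close to the floor used for dim probe sets, 5.06, and every antibody array was far above every control, for a log2 fold change of 2.81 ± 0.38 (adjusted p = 0.00117). Elovl3, the elongase of very long-chain fatty acids that active brown fat expresses strongly, read 10.41, 10.36, 10.52, 9.54 and 10.41 on the control arrays and 12.62, 12.65, 12.28, 12.41 and 11.77 on the antibody arrays. Control 34 was the lowest control array, and the log2 fold change was 2.1 ± 0.23 (adjusted p = 0.000331) over all 5 controls.

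Several of the next largest rises were of lipid enzymes and receptors. Pla2g2e, a secreted phospholipase A2, read 6.67, 6.14, 6.12, 6.11 and 6.65 on the control arrays and 8.08, 8.15, 8.24, 7.91 and 7.93 on the antibody arrays. The groups were tight and did not overlap, which gave the joint smallest p of all genes (log2 fold change 1.72 ± 0.12, adjusted p = 3.82e-06). Cyp2b10, a cytochrome P450 that oxidises many lipophilic substrates, rose by 1.92 ± 0.43 (adjusted p = 0.0202) and Cyp4b1, another P450, by 1.28 ± 0.16 (adjusted p = 0.000735). Ffar4, a G protein-coupled receptor of long-chain fatty acids (GPR120), read 8.89, 9.73, 9.42, 9.09 and 8.94 on the control arrays and 10.85, 10.96, 10.51, 10.93 and 10.53 on the antibody arrays. All antibody values exceeded all control values, and the log2 fold change was 1.54 ± 0.21 (adjusted p = 0.00117). Adcy3, an adenylyl cyclase that makes cyclic AMP, rose by 1.44 ± 0.23 (adjusted p = 0.00347), and its 3 other probe sets passed too. When 1 array was left out, some calls ended: that of Cyp2b10 without array 33, 41 or 43 (adjusted p up to 0.0556).

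Transport and mitochondrial proteins made up a second share of the large rises. Slc25a34, a mitochondrial carrier whose substrate is little known, read 9.38, 8.72, 9.08, 8.48 and 9.75 on the control arrays and 10.98, 10.89, 10.76, 10.96 and 10.4 on the antibody arrays, a log2 fold change of 1.71 ± 0.2 (adjusted p = 0.000638). Ak4, the adenylate kinase of the mitochondrial matrix, read 6.17, 6.29, 5.97, 5.95 and 5.95 on the control arrays and 7.71, 8.0, 7.97, 7.75 and 7.38 on the antibody arrays. No values overlapped, and the log2 fold change was 1.7 ± 0.15 (adjusted p = 6.08e-05). Of the 3 other probe sets of Ak4 above the filter 1 passed, with log2 fold changes between 0.01 and 1.18. Slc12a2, the sodium-potassium-chloride cotransporter NKCC1, rose by 1.47 ± 0.21 (adjusted p = 0.00144) and Slc4a4, a sodium-bicarbonate cotransporter, by 1.24 ± 0.18 (adjusted p = 0.00165). Got1, the cytosolic aspartate aminotransferase of the malate-aspartate shuttle, rose by 1.23 ± 0.13.

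Further members of the 25 largest rises had varied roles. Itih4, a secreted protein of the inter-alpha-trypsin inhibitor family, rose by 1.71 ± 0.32 (adjusted p = 0.00797). Egln3, a prolyl hydroxylase that marks HIF proteins for degradation, rose by 1.44 ± 0.2 (adjusted p = 0.00117). Sdc4, the heparan sulfate proteoglycan syndecan-4, read 9.61, 9.56, 9.53, 9.75 and 9.89 on the control arrays and 11.17, 11.01, 11.04, 11.33 and 10.9 on the antibody arrays. It had the other joint smallest p (log2 fold change 1.42 ± 0.10, adjusted p = 3.82e-06). Mreg (melanoregulin), Tectb (beta-tectorin) and Tesc (the calcium-binding protein tescalcin) rose by 1.44, 1.35 and 1.22. Ehhadh, Bdh1, Dusp4, Mt2, Acot1 and Car14, also among the 25, are described with their lists below.

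**Figure D3:**
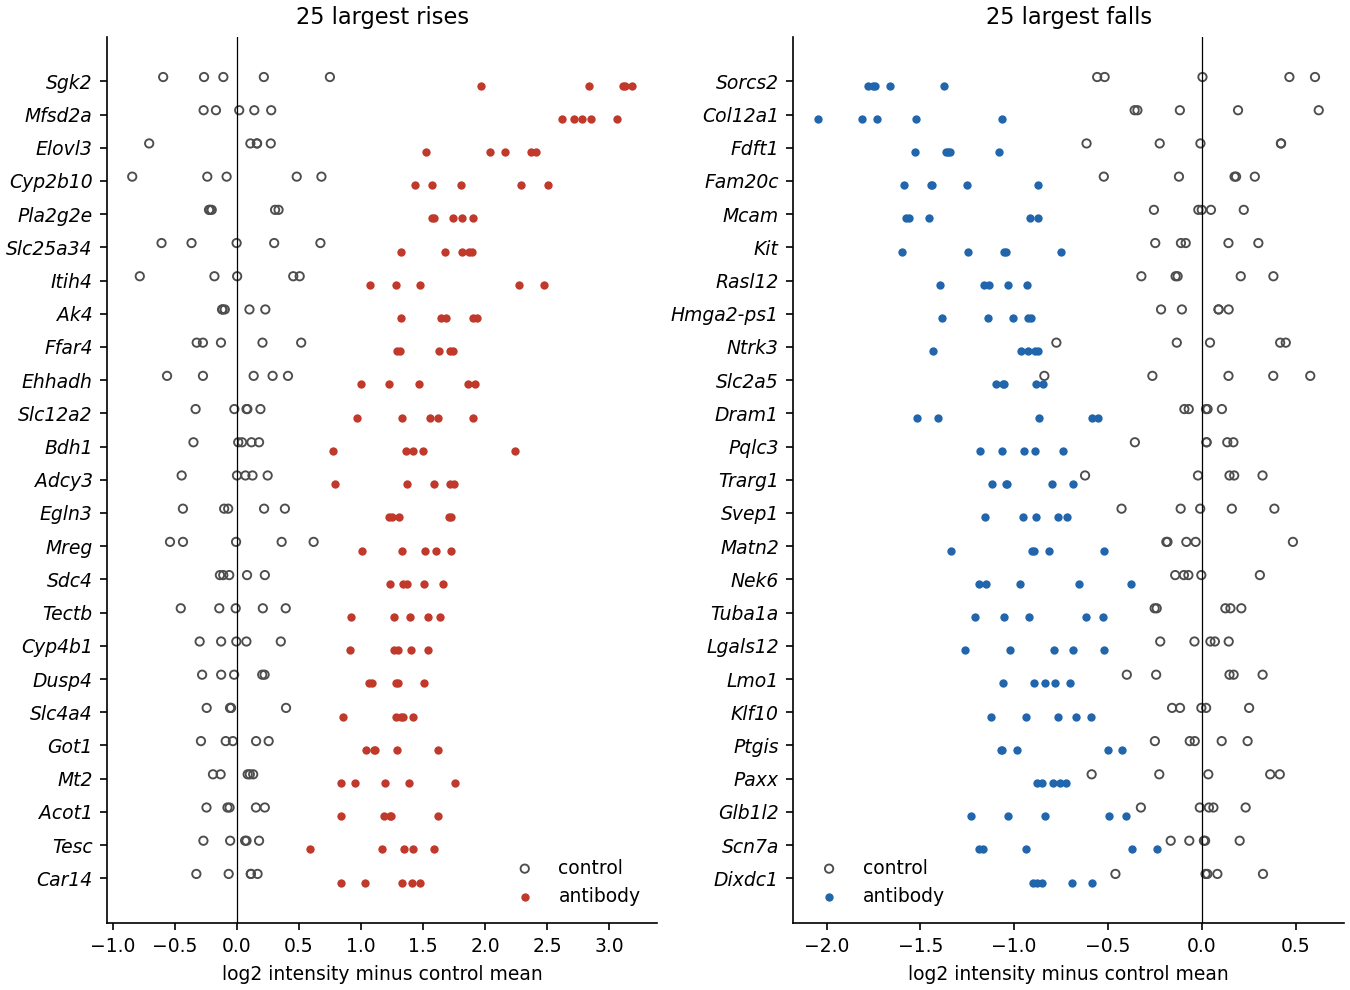
Log2 intensity minus the control mean (horizontal axes) on each array for the 25 largest rises (left) and the 25 largest falls (right) among genes that passed with no overlap. Open grey points are the 5 control arrays and filled points the 5 antibody arrays, which lie on one side of all control points in every row.

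The largest fall was that of Sorcs2, a sorting receptor that binds pro-neurotrophins. It read 7.81, 8.28, 8.41, 7.29 and 7.25 on the control arrays and 6.03, 6.07, 6.14, 6.06 and 6.44 on the antibody arrays. The antibody values were tight and below every control, with a log2 fold change of −1.66 ± 0.24 (adjusted p = 0.0017). Col12a1, a collagen that coats collagen fibrils, read 8.24, 8.79, 8.48, 9.22 and 8.26 on the control arrays and 6.87, 6.79, 7.07, 6.56 and 7.53 on the antibody arrays. It was highest on control 34 but lay below all controls on every antibody array (log2 fold change −1.64 ± 0.31, adjusted p = 0.00934), and the call held without control 34. Fam20c, the kinase that phosphorylates secreted proteins, had a log2 fold change of −1.32 ± 0.23 (adjusted p = 0.00597).

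Further falls included 4 genes of the adipocyte surface, droplet or storage machinery. Trarg1, a membrane protein that travels with the glucose transporter GLUT4, had a log2 fold change of −0.94 ± 0.17 (adjusted p = 0.00639). Lgals12, an adipocyte galectin on lipid droplets, had −0.86 ± 0.14 (adjusted p = 0.00488). Slc2a5, the fructose transporter, had −0.99 ± 0.24 (adjusted p = 0.0291). Plaat3, an adipocyte phospholipase also known as AdPLA, had −0.65 ± 0.12 (adjusted p = 0.00724). Matrix proteins were also among the falls: Svep1 at −0.9 and Matn2 at −0.89. Tuba1a, an alpha-tubulin, was at −0.87, Ptgis, prostacyclin synthase, at −0.81, Dram1, a lysosomal membrane protein tied to autophagy, at −0.99, and the mitotic kinase Nek6 at −0.87. The 25 also held Pqlc3 (−0.96), the transcriptional cofactor Lmo1 (−0.86), the DNA repair factor Paxx (−0.8), Glb1l2 (−0.8) and the pseudogene Hmga2-ps1 (−1.07). Fdft1, Mcam, Kit, Rasl12, Ntrk3, Klf10, Scn7a and Dixdc1, also among the 25 largest falls, are described with their lists below. Some calls ended in the fits without 1 array: that of Slc2a5 without array 31, 32, 33, 41, 42, 43 or 44 (adjusted p up to 0.0748), that of Ptgis without array 31, 32, 33, 42, 43 or 44 (adjusted p up to 0.092), that of Dram1 without array 31, 32, 33, 42 or 44 (adjusted p up to 0.0749) and that of Nek6 in every such fit but the ones without array 34, 36, 37, 38, 39 or 45 (adjusted p up to 0.1). Median centring of the arrays ended the call of Slc2a5. Trarg1, Lgals12, Slc2a5, Ptgis, Dram1, Nek6, Lmo1, Paxx and Glb1l2 lost their calls with ribosomal centring.

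No gene of the receptor complex itself passed. Of 16 tested FGF receptor, klotho and ligand genes 0 rose and 0 fell by limma (0 and 1 without control 34), with 4 at an unadjusted p under 0.05. The largest difference was that of Fgf21, 0.61. Fgf21 read 6.02, 5.68, 5.62, 5.35 and 5.92 on the control arrays and 5.89, 6.96, 6.23, 6.3 and 6.26 on the antibody arrays, with overlap of aFGFR1/KLB 41 with the controls (adjusted p = 0.128). Fgfr1 differed by −0.084 ± 0.12 (adjusted p = 0.77) and Klb by −0.22 ± 0.12 (adjusted p = 0.321), both within the spread between animals.

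Several brakes of the ERK pathway rose. Of 23 tested feedback and target genes 5 rose and 0 fell, with a list median of 0.055, and the list means of the groups overlapped (7.33 to 7.72 in controls and 7.63 to 7.74 with the antibody). Dusp4, a phosphatase that inactivates nuclear ERK, read 8.4, 7.91, 8.07, 8.17 and 8.42 on the control arrays and 9.47, 9.49, 9.28, 9.7 and 9.26 on the antibody arrays. The groups did not overlap (log2 fold change 1.25 ± 0.13, adjusted p = 0.000315). Dusp6, the cytoplasmic ERK phosphatase, read 9.48, 9.2, 9.19, 9.65 and 9.88 on the control arrays and 10.73, 10.43, 10.54, 10.76 and 10.46 on the antibody arrays. It too showed no overlap (log2 fold change 1.1 ± 0.14, adjusted p = 0.001). Spry4, a Sprouty inhibitor upstream of Ras, read 6.74, 6.85, 6.97, 6.93 and 7.07 on the control arrays and 8.15, 7.57, 7.64, 7.79 and 7.81 on the antibody arrays, a log2 fold change of 0.88 ± 0.12 (adjusted p = 0.0014), and Spred2, which blocks Raf activation, rose by 0.8 ± 0.1 (adjusted p = 0.00079). Spry1 was higher by 0.32 ± 0.085 (adjusted p = 0.0441). The count of called members lay between 4 (in 8 fits) and 7 (without control 34) when 1 array was left out. Of the other probe sets, 1 of 4 passed for Spred2 and 0 of 1 for Spry4. Leaving out 1 array ended calls here: that of Spry1 in every such fit but the ones without array 34, 36 or 43 (adjusted p up to 0.109). A mean over the probe sets ended the call of Spry4, fitting only the 10 arrays that of Spry1 and dropping the filter on dim probe sets that of Spry1. Spry1 lost the call with ribosomal centring.

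In the list of Ras family, Raf and MAP kinase genes 1 member rose and 2 fell of 23 (1 and 3 without control 34). Both falls were of Ras-like small GTPases, and none of the called genes encodes a Raf or a MAP kinase. Rasl12, a small GTPase of the Ras family, read 9.96, 10.3, 10.47, 9.77 and 9.95 on the control arrays and 8.7, 8.96, 8.93, 9.16 and 9.06 on the antibody arrays. The log2 fold change was −1.13 ± 0.15 (adjusted p = 0.001). Rasd1, a Ras-like protein induced by glucocorticoids in other tissues, had a log2 fold change of −0.84 ± 0.2 (adjusted p = 0.0258), and Rasgrp3, an exchange factor that activates Ras, one of 0.44 ± 0.12 (adjusted p = 0.0458). Among 20 immediate early transcription factors 0 rose and 2 fell. Those lower were Klf10 (−0.82 ± 0.14, adjusted p = 0.00412), a factor first known from TGF-beta induction, and Jund (−0.38 ± 0.10, adjusted p = 0.0338), the AP-1 subunit. Fits that left out 1 array lost calls: that of Rasd1 in every such fit but the ones without array 34, 36, 37, 38, 39, 40 or 44 (adjusted p up to 0.0746), that of Rasgrp3 in every such fit but the ones without array 34, 36, 37 or 43 (adjusted p up to 0.11) and that of Jund in every such fit but the ones without array 34, 36, 37, 38, 39, 40 or 45 (adjusted p up to 0.0849). Averaging all probe sets of a gene ended the call of Jund, a fit to the 10 arrays alone those of Rasgrp3 and Jund, centring the arrays on their median that of Jund and testing the dim probe sets too that of Rasgrp3. Rasd1, Rasgrp3 and Jund lost their calls with ribosomal centring.

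**Figure D4:**
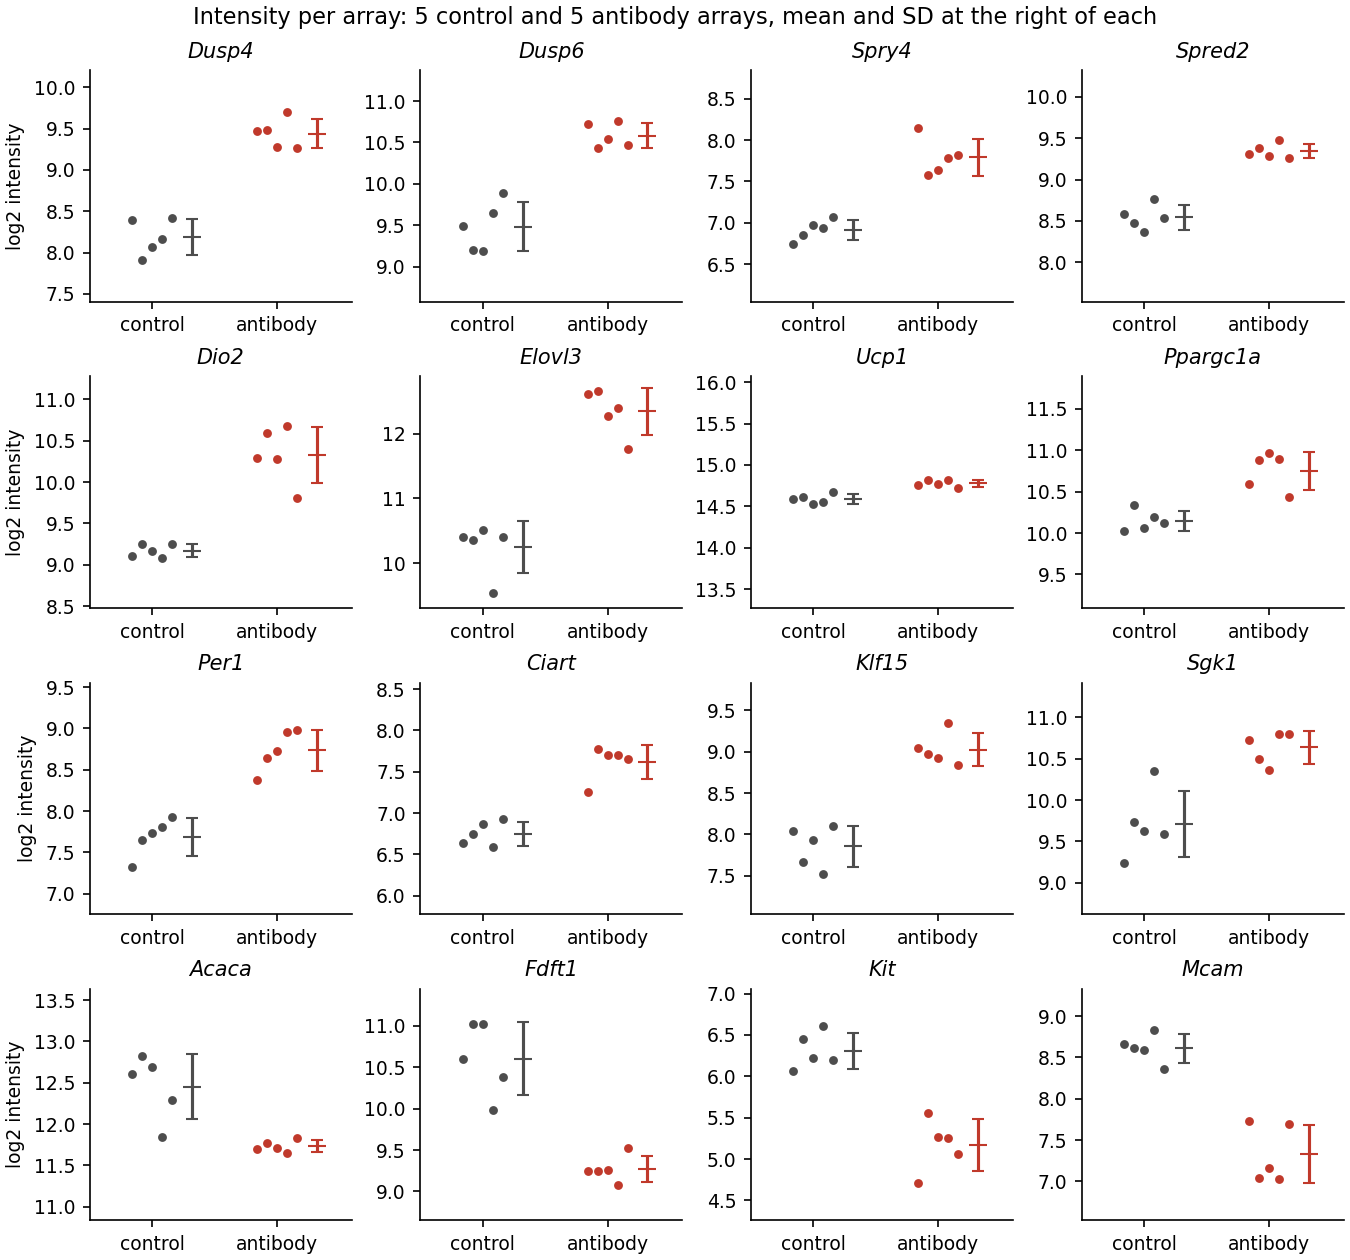
Log2 intensity (vertical axes) of 16 genes on the 5 control (grey) and 5 antibody (red) arrays, with the mean and SD of each group at the right of its points. Dusp4, Dusp6, Spry4, Spred2, Dio2, Elovl3, Per1, Ciart and Klf15 lie higher on every antibody array than on any control, Ucp1 does so by 0.19, Fdft1, Kit and Mcam lie lower on every one, and Acaca lies lower with control 34 at the antibody level.

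Genes that answer cyclic AMP rose where they moved. Of 22 tested CREB and cyclic AMP target genes 4 rose and 0 fell: Per1, Dio2, Ppargc1a and Pde3b, the phosphodiesterase through which insulin lowers cyclic AMP (0.39 ± 0.1, adjusted p = 0.0362). The called members lay between 2 (in 6 fits) and 4 (without control 34 or antibody array 45) in the fits without 1 array. Of 22 adrenergic and other receptors, cyclases and partners that couple through Gs or Gi, 2 rose, Ffar4 and Adcy3, and 0 fell (2 and 2 without control 34). The call of Pde3b ended without any 1 of arrays 31, 33, 41, 42, 43 and 44 (adjusted p up to 0.0874). Median centring of the arrays ended the call of Pde3b. Pde3b lost the call with ribosomal centring.

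Insulin pathway members split, 5 higher and 2 lower of 29 (5 and 3 without control 34), with a median of 0.0024. Sgk2 led the rises. Its relative Sgk1, a kinase that acts on sodium transport, read 9.24, 9.73, 9.63, 10.35 and 9.59 on the control arrays and 10.72, 10.5, 10.36, 10.8 and 10.8 on the antibody arrays, a log2 fold change of 0.93 ± 0.17 (adjusted p = 0.00748). The highest control, 34, lay just under the lowest antibody value. Insr, the insulin receptor, rose by 0.36 ± 0.069 (adjusted p = 0.00889) and Pdpk1, the kinase that activates Akt and Sgk, by 0.39 ± 0.077 (adjusted p = 0.0113). Pik3ca, a catalytic subunit of phosphoinositide 3-kinase, was higher by 0.19 ± 0.052 (adjusted p = 0.0463). Grb14, an adaptor that inhibits the insulin receptor, had a log2 fold change of −0.55 ± 0.12 (adjusted p = 0.0184), and Trarg1 was the other fall. The glucose transporter Slc2a4 (GLUT4) was at 11.41 to 12.04 in controls and 11.61 to 11.81 with the antibody (log2 fold change −0.11 ± 0.13, adjusted p = 0.717). The fits with 1 array left out ended calls: that of Pik3ca in every such fit but the ones without array 36 or 37 (adjusted p up to 0.119) and that of Grb14 without array 32 (adjusted p up to 0.0526). A mean over the probe sets ended the call of Insr, a fit to the 10 arrays alone that of Pik3ca, bringing the arrays to 1 median that of Pik3ca and testing the dim probe sets too that of Pik3ca. Insr, Pdpk1, Pik3ca and Grb14 lost their calls with ribosomal centring.

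The list of glucocorticoid receptor targets had a median of 0.26, where that of all genes was −0.019, with 5 of 22 members up and 2 down (8 and 2 without control 34). Klf15, a transcription factor of amino acid and lipid metabolism, read 8.05, 7.67, 7.93, 7.52 and 8.1 on the control arrays and 9.04, 8.97, 8.92, 9.35 and 8.84 on the antibody arrays. No values overlapped (log2 fold change 1.17 ± 0.16, adjusted p = 0.00117). The metallothioneins, small metal-binding proteins that glucocorticoids, zinc and other stimuli induce, rose as well. Mt2 read 9.66, 9.89, 9.92, 9.6 and 9.88 on the control arrays and 10.98, 11.18, 11.55, 10.63 and 10.74 on the antibody arrays (log2 fold change 1.23 ± 0.17, adjusted p = 0.00142), and Mt1 rose by 0.62 ± 0.088 (adjusted p = 0.00162). They were the 2 genes called of 14 metallothionein and zinc transport genes (4 and 0 without control 34). Angptl4, a secreted inhibitor of lipoprotein lipase, was lower, at −0.72 ± 0.16 (adjusted p = 0.0186), and so was Nr3c2, the mineralocorticoid receptor, at −0.51 ± 0.13 (adjusted p = 0.034). Nr3c2 and the glucocorticoid receptor gene Nr3c1 are themselves members of this list, so its counts are not of targets alone. The count of called members lay between 5 (without control 32, control 33 or antibody array 44) and 10 (without control 34) in the fits without 1 array. Omission of array 32, 33 or 44 ended the call of Angptl4 (adjusted p up to 0.0528). That of Nr3c2 ended without array 32, 33, 41, 42, 43 or 44 (adjusted p up to 0.0885). Fitting only the 10 arrays ended the call of Nr3c2 and centring the arrays on their median that of Nr3c2. Angptl4 and Nr3c2 lost their calls with ribosomal centring.

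Thermogenic genes split in direction. Of 39 tested members 7 rose and 2 fell, with a median of 0.038. The mean level of the list was 9.75, 9.79, 9.77, 9.64 and 9.77 on control arrays and 9.89, 9.86, 9.92, 9.89 and 9.89 on antibody arrays, so the groups did not overlap and lay close together. Such separation was not particular to this list: the means of cyclic AMP targets, glucocorticoid receptor targets and glycerolipid enzymes did not overlap either. Dio2, the deiodinase that makes active thyroid hormone inside brown adipocytes, read 9.1, 9.26, 9.17, 9.08 and 9.25 on the control arrays and 10.29, 10.6, 10.27, 10.67 and 9.81 on the antibody arrays, a log2 fold change of 1.16 ± 0.24 (adjusted p = 0.0142). Of its 2 other probe sets 1 passed. Eva1a is counted in this list, although it is known as a membrane protein linked to autophagy rather than to heat production. It read 5.67, 5.62, 5.66, 5.58 and 5.56 on the control arrays and 6.28, 6.52, 6.37, 6.4 and 6.54 on the antibody arrays. The values of each group lay close together, and the log2 fold change was 0.8 ± 0.083 (adjusted p = 0.000315). Slc27a2, a very long-chain acyl-CoA synthetase and fatty acid transporter, was higher by 1.02 ± 0.26 (adjusted p = 0.0367) and Bmp8b, a secreted factor that sensitises brown fat to nerve input, by 0.8 ± 0.21 (adjusted p = 0.036). When 1 array was left out, some calls ended: that of Slc27a2 in every such fit but the ones without array 32, 34, 36, 37, 38, 39 or 45 (adjusted p up to 0.0951) and that of Bmp8b without array 32, 33, 35, 41, 42, 43 or 44 (adjusted p up to 0.0936). Taking the mean of a gene's probe sets ended the call of Bmp8b and median centring of the arrays those of Slc27a2 and Bmp8b. Slc27a2 and Bmp8b lost their calls with ribosomal centring.

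Central genes of brown fat identity moved in both directions, and Ucp1 and Cidea moved little. Ppargc1a, the coactivator of mitochondrial genes, read 10.03, 10.34, 10.06, 10.19 and 10.12 on the control arrays and 10.59, 10.88, 10.96, 10.89 and 10.44 on the antibody arrays, a log2 fold change of 0.6 ± 0.17 (adjusted p = 0.0486), and its 4 other probe sets passed too. Ucp1 was higher by 0.19 ± 0.052 (adjusted p = 0.0494), with every antibody value above every control. The brightest gene of the array had a mean of 15.02, and whether signals this near the top of the scale are compressed was not tested. Prdm16, a determinant of brown adipocyte identity, read 8.89, 9.12, 8.98, 8.58 and 8.77 on the control arrays and 8.31, 8.24, 8.32, 8.54 and 8.39 on the antibody arrays. It was lower, at −0.51 ± 0.14 (adjusted p = 0.0475), with 1 of its 3 other probe sets called. Ntrk3, the neurotrophin-3 receptor, had a log2 fold change of −1.02 ± 0.22 (adjusted p = 0.0168), and its 5 other probe sets passed too. Cidea differed by 0.056 ± 0.071 (adjusted p = 0.741). The call of Ucp1 in particular was at the threshold. Some calls ended in the fits without 1 array: that of Ppargc1a in every such fit but the ones without array 34, 36, 39 or 45 (adjusted p up to 0.117), that of Ucp1 in every such fit but the one without array 36 (adjusted p up to 0.119) and that of Prdm16 in every such fit but the ones without array 34, 36, 38 or 39 (adjusted p up to 0.119). Fitting only the 10 arrays ended the call of Ucp1, bringing the arrays to 1 median those of Ppargc1a, Ucp1 and Prdm16 and dropping the filter on dim probe sets those of Ppargc1a, Ucp1 and Prdm16. Ppargc1a, Ucp1, Prdm16 and Ntrk3 lost their calls with ribosomal centring.

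The respiratory machinery showed no called gene. By limma 0 of 74 subunits of oxidative phosphorylation passed, with fold changes between −0.16 and 0.16 on the log2 scale and a median of 0.0063. Nor did any of 29 genes of the TCA cycle and pyruvate oxidation (−0.31 to 0.32) or of 49 genes of mitochondrial protein synthesis and import (−0.22 to 0.33). Without control 34 2 genes of the TCA list were called, both lower. At an unadjusted p under 0.05 the counts over all arrays were 2, 1 and 7. Of 39 uncoupling proteins and carriers of the same family 6 were higher and 0 lower. Without control 34 the list had 6 higher and 4 lower members. Beside Slc25a34 and Ucp1 the 6 called over all arrays included Slc25a33, a pyrimidine nucleotide carrier that insulin and growth signals induce (0.72 ± 0.15, adjusted p = 0.0143), Slc25a17, a peroxisomal carrier of cofactors (0.7), Slc25a15, an ornithine carrier (0.37), and Slc25a3, the phosphate carrier (0.21). Among creatine and adenylate kinases Ak4 rose and Gamt, which completes creatine synthesis, was lower (−0.74 ± 0.19, adjusted p = 0.0376). Without control 34 that list had 2 members higher and 0 lower. Leaving out 1 array ended calls here: that of Slc25a17 without array 32, 42 or 44 (adjusted p up to 0.0613), that of Slc25a15 without array 32, 41, 42 or 44 (adjusted p up to 0.0625), that of Slc25a3 in every such fit but the ones without array 34, 35, 36, 37, 38, 39 or 41 (adjusted p up to 0.0985) and that of Gamt in every such fit but the ones without array 36, 37, 38, 39 or 45 (adjusted p up to 0.0963). Averaging all probe sets of a gene ended the calls of Slc25a17, Slc25a15 and Slc25a3, a fit to the 10 arrays alone that of Slc25a3, centring the arrays on their median those of Slc25a15 and Slc25a3 and testing the dim probe sets too that of Slc25a3. Slc25a33, Slc25a17, Slc25a15 and Slc25a3 lost their calls with ribosomal centring.

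Of 28 tested lipogenic genes 2 fell and 1 rose, with a median of −0.15. The share called was 10.7%, where that of all genes was 5.18%. At limma's unadjusted p under 0.05 the count was 13. Acaca, acetyl-CoA carboxylase 1 and the committed step of fatty acid synthesis, read 12.61, 12.83, 12.69, 11.84 and 12.29 on the control arrays and 11.7, 11.77, 11.72, 11.65 and 11.84 on the antibody arrays. Control 34 lay at the level of the antibody arrays, and the log2 fold change was −0.72 ± 0.18 (adjusted p = 0.0305). Mid1ip1, which helps acetyl-CoA carboxylase to polymerise, was lower, at −0.35 ± 0.092 (adjusted p = 0.0404). Fasn, fatty acid synthase, differed by −0.29 ± 0.092 (adjusted p = 0.0863), Srebf1, which encodes the lipogenic factor SREBP-1, by −0.31 ± 0.11 (adjusted p = 0.137), and Scd1 by −0.069 ± 0.046 (adjusted p = 0.458). Without control 34 the list had 9 members lower and 1 higher. Fits that left out 1 array lost calls: that of Acaca without array 31, 32, 33, 41, 42, 43 or 44 (adjusted p up to 0.0818) and that of Mid1ip1 in every such fit but the ones without array 34, 36, 37, 39, 40 or 45 (adjusted p up to 0.101). Taking the mean of a gene's probe sets ended the call of Acaca, fitting only the 10 arrays that of Mid1ip1, median centring of the arrays those of Acaca and Mid1ip1 and dropping the filter on dim probe sets that of Mid1ip1. Acaca and Mid1ip1 lost their calls with ribosomal centring.

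Of 16 elongases, desaturases and partner enzymes 4 rose and 0 fell (4 and 1 without control 34), while the list median, −0.02, was near that of all genes. Beside Elovl3 these were the enzymes of the later steps of the elongation cycle: Hsd17b12, the ketoacyl-CoA reductase (0.42 ± 0.087, adjusted p = 0.0138), and the dehydratases Hacd1 (0.34 ± 0.068, adjusted p = 0.0121) and Hacd2 (0.66 ± 0.14, adjusted p = 0.014). Hacd2 read 11.78, 11.8, 11.56, 11.72 and 11.92 on the control arrays and 12.39, 12.56, 12.38, 12.68 and 12.07 on the antibody arrays. All antibody arrays were above all controls. Bringing the arrays to 1 median ended the call of Hsd17b12. Hsd17b12 and Hacd2 lost their calls with ribosomal centring.

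Cholesterol synthesis did not move as a block. Of 18 tested genes 0 rose and 2 fell (0 and 3 without control 34). Fdft1, squalene synthase and the first committed step to sterols, read 10.6, 11.03, 11.03, 9.99 and 10.38 on the control arrays and 9.25, 9.24, 9.26, 9.08 and 9.52 on the antibody arrays. Every antibody value lay below every control (log2 fold change −1.33 ± 0.16, adjusted p = 0.000735), but only 1 of its 3 other probe sets passed. Ggps1, which makes geranylgeranyl diphosphate, had a log2 fold change of −0.38 ± 0.074 (adjusted p = 0.00975). Among 19 genes of cholesterol uptake and export, Stard5, a sterol-binding protein, was the 1 called (0.41 ± 0.1, adjusted p = 0.0305), where without control 34 there were 2 higher and 1 lower. The call of Stard5 ended without any 1 of arrays 32, 33, 35, 41, 42, 43 and 44 (adjusted p up to 0.0849). Centring the arrays on their median ended the call of Stard5. Ggps1 and Stard5 lost their calls with ribosomal centring.

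Among glycerolipid and phospholipid enzymes 4 rose and 1 fell of 43 (4 and 2 without control 34). Gpam, the mitochondrial acyltransferase that starts triglyceride synthesis, rose by 0.48 ± 0.10 (adjusted p = 0.0127) and Chka, choline kinase, by 0.45 ± 0.086 (adjusted p = 0.00918). Of 25 droplet coat and lipolysis genes 2 rose and 0 fell, with a median of 0.17. Leaving out control 34 gave 3 higher and 3 lower and a median of 0.075. Abhd5, the activator of the triglyceride lipase ATGL, read 10.12, 9.81, 10.1, 9.94 and 10.12 on the control arrays and 10.92, 11.07, 10.83, 10.69 and 10.44 on the antibody arrays, with no overlap (log2 fold change 0.78 ± 0.12, adjusted p = 0.00233). Plin2, a droplet coat protein, was higher by 0.23 ± 0.057 (adjusted p = 0.0352). Of 24 genes of fatty acid uptake and triglyceride clearance 3 rose, among them the fatty acid translocase Cd36 (0.23 ± 0.054, adjusted p = 0.0248). The 2 that fell, Angptl4 and Angptl8 (−0.83 ± 0.2, adjusted p = 0.0289), both encode inhibitors of lipoprotein lipase or partners of such inhibitors, and the list had 5 rises and 2 falls without control 34. The fits with 1 array left out ended calls: that of Plin2 in every such fit but the ones without array 31, 34, 36, 37, 38, 39 or 44 (adjusted p up to 0.1), that of Cd36 without array 31, 32, 33, 41, 42 or 45 (adjusted p up to 0.0669) and that of Angptl8 in every such fit but the ones without array 34, 36, 37, 38, 39 or 40 (adjusted p up to 0.0749). Taking the mean of a gene's probe sets ended the call of Chka, a fit to the 10 arrays alone that of Angptl8, median centring of the arrays those of Plin2 and Angptl8 and testing the dim probe sets too that of Plin2. Gpam, Chka, Plin2, Cd36 and Angptl8 lost their calls with ribosomal centring.

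Acyl-CoA thioesterases, which split fatty acids from coenzyme A, made up most of the rises in their list. Of 26 tested synthetases, thioesterases and binding proteins 6 rose and 1 fell (6 and 3 without control 34), with a median of 0.15. Acot1, the cytosolic form, read 5.7, 5.89, 5.87, 6.1 and 6.17 on the control arrays and 7.18, 7.57, 7.14, 7.19 and 6.79 on the antibody arrays. The groups did not overlap (log2 fold change 1.22 ± 0.15, adjusted p = 0.000768). Acot2, the mitochondrial form, read 11.0, 11.09, 11.44, 10.64 and 11.14 on the control arrays and 11.83, 11.96, 11.85, 11.52 and 11.61 on the antibody arrays (log2 fold change 0.69 ± 0.15, adjusted p = 0.0168). Acot4 and Acot8, both peroxisomal, rose by 1.04 ± 0.19 and 0.41 ± 0.083, Acot6 by 0.42 ± 0.087, and Acsl3, an acyl-CoA synthetase of the endoplasmic reticulum and droplets, by 0.37 ± 0.08. Acot7, the form best known from brain, had a log2 fold change of −0.38 ± 0.069. Acot1 to Acot6 lie in a cluster of near-identical genes on the mouse genome, so their probe sets may read more than one of them. The called members lay between 6 (without antibody array 42) and 9 (without control 34) in the fits without 1 array. The call of Acot2 ended without array 42 (adjusted p up to 0.051). A mean over the probe sets ended the call of Acot6. Acot2, Acot8, Acot6, Acsl3 and Acot7 lost their calls with ribosomal centring.

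Of 30 genes of mitochondrial fatty acid oxidation 2 rose and 0 fell (3 and 0 without control 34). The share called, 6.67%, was near the 5.18% of all genes. Bdh1, the hydroxybutyrate dehydrogenase of ketone body metabolism, read 4.51, 4.12, 4.65, 4.48 and 4.59 on the control arrays and 5.97, 5.83, 5.24, 5.89 and 6.71 on the antibody arrays. All 5 controls lay below 5.06, the level set as the filter on dim probe sets, and the gene was tested because of its other arrays. Its rise (adjusted p = 0.00724) is therefore a bound: the antibody mean was at least 1.82-fold above that level. Mlycd, which removes the malonyl-CoA that blocks fatty acid import, was higher by 0.58 ± 0.16 (adjusted p = 0.0445). In peroxisomes 4 of 35 rose and 0 fell (3 and 0 without control 34), or 11.4% called. Ehhadh, the bifunctional enzyme of peroxisomal beta-oxidation, read 8.96, 9.94, 9.66, 9.25 and 9.81 on the control arrays and 11.44, 10.99, 11.39, 10.76 and 10.53 on the antibody arrays (log2 fold change 1.5 ± 0.27, adjusted p = 0.00737), with all antibody values above all controls. Cat, catalase, rose by 0.41 ± 0.089 (adjusted p = 0.0166) and Decr2, an auxiliary enzyme for unsaturated chains, was higher by 0.53 ± 0.14 (adjusted p = 0.0486). When 1 array was left out, some calls ended: that of Mlycd in every such fit but the ones without array 34, 36, 37 or 45 (adjusted p up to 0.11) and that of Decr2 in every such fit but the ones without array 36, 37 or 45 (adjusted p up to 0.116). Centring the arrays on their median ended the calls of Mlycd and Decr2 and testing the dim probe sets too those of Mlycd and Decr2. Mlycd, Cat and Decr2 lost their calls with ribosomal centring.

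**Figure D5:**
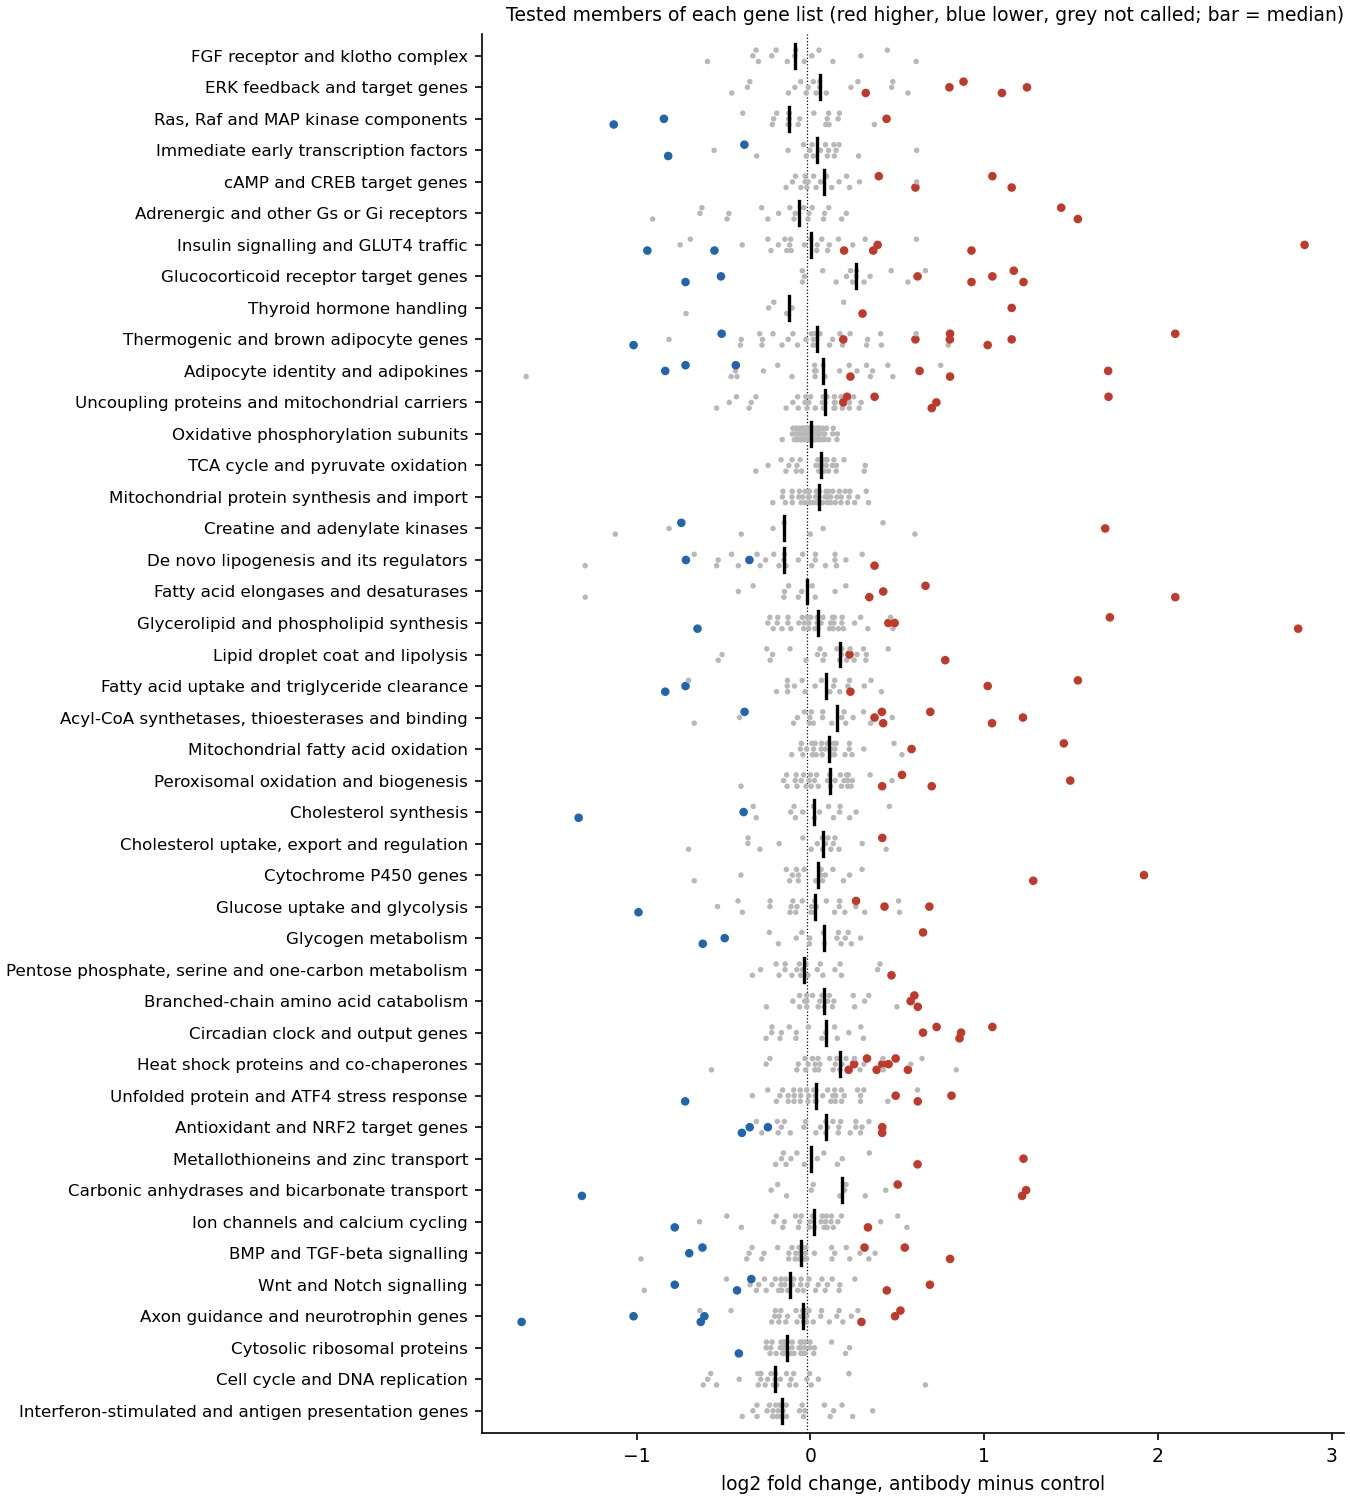
Log2 fold change of antibody over control (horizontal axis) for every tested member of the gene lists on metabolism, signalling and stress (vertical axis). Members that rose are red, those that fell blue, the rest grey, the black bar is the list median and the dotted line the median of all genes, −0.019. Oxidative phosphorylation subunits lie within −0.16 and 0.16, while carriers, elongases, thioesterases and clock genes have called members on the right and, but for Acot7, none on the left.

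Glucose handling changed in single genes. Of 29 genes of glucose uptake and glycolysis 3 rose and 1 fell (4 and 2 without control 34). Pfkp, the platelet phosphofructokinase, read 10.79, 10.84, 10.93, 10.39 and 10.63 on the control arrays and 11.41, 11.56, 11.5, 11.44 and 11.09 on the antibody arrays (log2 fold change 0.68 ± 0.14, adjusted p = 0.014), without overlap. Hk1, a hexokinase, rose by 0.43 ± 0.095 (adjusted p = 0.0192) and Tpi1, triosephosphate isomerase, was higher by 0.26 ± 0.062 (adjusted p = 0.0257). Slc2a1 (GLUT1) read 7.46, 7.04, 6.86, 8.02 and 7.14 on the control arrays and 7.81, 7.77, 7.92, 7.61 and 7.97 on the antibody arrays, with control 34 above every antibody array (log2 fold change 0.51 ± 0.17, adjusted p = 0.107). Without that array it passed, at 0.69 (adjusted p = 0.00405). In glycogen metabolism Ppp1r3c, which directs the phosphatase that turns on glycogen synthase, read 11.06, 10.86, 10.76, 10.56 and 10.93 on the control arrays and 11.4, 11.52, 11.31, 11.62 and 11.56 on the antibody arrays (log2 fold change 0.65 ± 0.088, adjusted p = 0.00117). The genes of glycogen breakdown that passed fell: Phka2, a phosphorylase kinase subunit, at −0.62 ± 0.13 and Pygb, a glycogen phosphorylase, at −0.49 ± 0.11. Some calls ended in the fits without 1 array: that of Hk1 without array 32, 33, 42, 43 or 44 (adjusted p up to 0.0588), that of Tpi1 without array 35, 41, 42 or 45 (adjusted p up to 0.0679) and that of Pygb without array 32 or 42 (adjusted p up to 0.0518). Fitting only the 10 arrays ended the call of Tpi1 and median centring of the arrays those of Tpi1 and Pygb. Pfkp, Hk1, Tpi1, Phka2 and Pygb lost their calls with ribosomal centring.

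In amino acid metabolism 3 of 25 genes of branched-chain breakdown rose and 0 fell (2 and 1 without control 34). Slc3a2, the heavy chain of the transporter that brings in large neutral amino acids, read 9.07, 9.01, 8.98, 9.43 and 9.13 on the control arrays and 9.72, 9.77, 9.97, 9.59 and 9.67 on the antibody arrays (log2 fold change 0.62 ± 0.10, adjusted p = 0.00265). Dbt, the acyltransferase of the branched-chain ketoacid dehydrogenase, rose by 0.58 ± 0.12 (adjusted p = 0.0115), and Mcee, the methylmalonyl-CoA epimerase, was higher by 0.6 ± 0.16 (adjusted p = 0.0445). Mat2b, a regulator of the enzyme that makes S-adenosylmethionine, was the 1 called of 22 pentose phosphate, serine and one-carbon genes (0.47 ± 0.1, adjusted p = 0.0166). Without control 34 that list had 1 higher and 1 lower. Leaving out 1 array ended calls here: that of Mcee in every such fit but the ones without array 33, 36, 37 or 45 (adjusted p up to 0.112). Bringing the arrays to 1 median ended the call of Mcee and testing the dim probe sets too that of Mcee. Dbt, Mcee and Mat2b lost their calls with ribosomal centring.

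Of 21 tested clock and clock output genes 5 rose and 0 fell, with a median of 0.089. The fit without control 34 had 5 higher and 2 lower and a median of −0.028, below 0. In the molecular clock CLOCK and BMAL1 bind E-boxes, the PER and CRY proteins repress them, and cyclic AMP and glucocorticoids can induce Per genes directly. The 250 bases before the start of Ciart and Per1 are shown because both genes rose and both windows hold the E-box, and those of Dio2 because this cyclic AMP target rose and its window holds a cyclic AMP response element. The sequences are RefSeq's (mouse build GRCm38.p6), printed on the gene's own strand with matches in capitals, CACGTG for the E-box and TGACGTCA for the response element.
Ciart, chr3:95882229-95882478, minus strand: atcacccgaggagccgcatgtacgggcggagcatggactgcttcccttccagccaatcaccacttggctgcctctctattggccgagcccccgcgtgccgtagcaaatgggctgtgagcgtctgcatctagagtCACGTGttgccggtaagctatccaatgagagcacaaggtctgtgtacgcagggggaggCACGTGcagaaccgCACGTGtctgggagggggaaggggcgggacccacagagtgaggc
Per1, chr11:69098699-69098948, plus strand, 1 of 2 windows of the gene: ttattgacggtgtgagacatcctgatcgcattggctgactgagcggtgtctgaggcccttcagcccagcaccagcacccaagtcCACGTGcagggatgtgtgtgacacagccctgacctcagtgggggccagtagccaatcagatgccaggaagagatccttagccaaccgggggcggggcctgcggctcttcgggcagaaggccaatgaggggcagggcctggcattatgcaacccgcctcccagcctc
Dio2, chr12:90739039-90739288, minus strand: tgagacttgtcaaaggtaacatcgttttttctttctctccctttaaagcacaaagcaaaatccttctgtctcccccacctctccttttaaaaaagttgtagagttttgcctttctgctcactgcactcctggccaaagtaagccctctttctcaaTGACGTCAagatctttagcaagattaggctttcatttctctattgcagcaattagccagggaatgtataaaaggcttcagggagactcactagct

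Ciart has 3 E-boxes in its window and Per1 has 1. Of the other clock genes that rose, Nfil3 and Usp2 have none in theirs and Per2 has no window here, and 3 clock genes that were not called, Bhlhe41, Cry1 and Tef, have 1 each. Both motifs read the same on either strand and do not overlap each other, and an E-box occurred in 6.02% of all 32851 windows of this length. Counted by gene, with a match in any of its windows, 9.83% of tested genes with a window held one. Among the 290 such genes that rose the share was 11.4%. The response element of Dio2 occurred in 1.55% of all windows, and by gene in 2.87% of those tested and 3.1% of those that rose. The motifs were searched with these results known, and a match is a description of letters, not a site shown to act.

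Per1, a period gene, read 7.33, 7.65, 7.73, 7.8 and 7.93 on the control arrays and 8.38, 8.64, 8.73, 8.95 and 8.98 on the antibody arrays. Every antibody value lay above every control (log2 fold change 1.05 ± 0.19, adjusted p = 0.00789). Ciart, a repressor of CLOCK and BMAL1, read 6.64, 6.74, 6.87, 6.58 and 6.93 on the control arrays and 7.26, 7.77, 7.71, 7.7 and 7.65 on the antibody arrays (log2 fold change 0.87 ± 0.14, adjusted p = 0.00311), again without overlap. Per2 rose by 0.73 ± 0.13 (adjusted p = 0.0071), Nfil3, a repressor of clock output genes, by 0.65 ± 0.12 (adjusted p = 0.00941), and Usp2, a deubiquitinase with a strong daily rhythm, by 0.86 ± 0.17 (adjusted p = 0.0124). Nr1d1 (REV-ERB alpha) differed by −0.25 ± 0.14 (adjusted p = 0.354) and was called lower without control 34 (−0.4, adjusted p = 0.0233), and the output factor Dbp differed by −0.083 ± 0.19 (adjusted p = 0.866). The labels give no time of day for the tissue collection, so a difference in sampling hour and the treatment cannot be told apart here. The called members lay between 5 (in 9 fits) and 7 (without control 34) in the fits without 1 array.

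Of 37 tested heat shock genes and co-chaperones 8 rose and 0 fell (10 and 2 without control 34), with a median of 0.17. Hsp90aa1, the inducible cytosolic HSP90, read 12.19, 12.0, 11.97, 12.47 and 12.19 on the control arrays and 12.61, 12.78, 12.63, 12.5 and 12.55 on the antibody arrays. Control 34 lay just under the lowest antibody array (log2 fold change 0.45 ± 0.11, adjusted p = 0.0241). Bag3, a co-chaperone of HSP70 in selective autophagy, rose by 0.41 ± 0.087 (adjusted p = 0.0147), its small heat shock partner Hspb8 by 0.38 ± 0.092 (adjusted p = 0.0281), and the endoplasmic reticulum cochaperone Dnajb9 by 0.49 ± 0.11 (adjusted p = 0.0211). Chordc1, an HSP90 partner, and Hspd1, the mitochondrial chaperonin HSP60, were higher by 0.33 and 0.25, and Hspa4l and Dnaja2, a relative of HSP110 and an HSP40, by 0.56 and 0.22. The called members lay between 1 (without antibody array 42) and 12 (without control 34) in the fits without 1 array. Fits that left out 1 array lost calls: that of Hsp90aa1 without array 32, 33, 41, 42 or 43 (adjusted p up to 0.0717), that of Hspb8 without array 32, 35, 41, 42, 43, 44 or 45 (adjusted p up to 0.0771), that of Dnajb9 without array 33, 42 or 43 (adjusted p up to 0.0617), that of Chordc1 in every such fit but the ones without array 34, 36, 37, 38 or 39 (adjusted p up to 0.106), that of Hspd1 in every such fit but the ones without array 34, 36 or 38 (adjusted p up to 0.112), that of Hspa4l in every such fit but the ones without array 36, 37 or 45 (adjusted p up to 0.116) and that of Dnaja2 in every such fit but the ones without array 34, 36 or 37 (adjusted p up to 0.116). Averaging all probe sets of a gene ended the calls of Hsp90aa1 and Hspa4l, fitting only the 10 arrays those of Hspb8, Chordc1 and Dnaja2, centring the arrays on their median those of Hspb8, Hspd1, Hspa4l and Dnaja2 and dropping the filter on dim probe sets those of Chordc1, Hspd1, Hspa4l and Dnaja2. Hspb8, Dnajb9, Chordc1, Hspd1, Hspa4l and Dnaja2 lost their calls with ribosomal centring.

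Of 41 genes of the unfolded protein and ATF4 responses 3 rose and 1 fell (6 and 1 without control 34). Trib3, a pseudokinase induced by ATF4, read 7.42, 6.97, 6.94, 6.65 and 7.08 on the control arrays and 7.6, 7.87, 8.27, 7.55 and 7.83 on the antibody arrays, a log2 fold change of 0.81 ± 0.16 (adjusted p = 0.011). Nupr1, a small stress-induced chromatin protein, was lower, at −0.72 ± 0.17 (adjusted p = 0.0257). Antioxidant genes moved both ways, 2 up and 3 down of 29 (3 and 4 without control 34): Txnrd1, thioredoxin reductase, was higher by 0.41 ± 0.1 (adjusted p = 0.0348) and its substrate Txn1, thioredoxin, was lower, at −0.35 ± 0.092 (adjusted p = 0.041). The exporter Abcc1 and the peroxiredoxin Prdx2 were lower, at −0.39 ± 0.082 and −0.24 ± 0.057. Omission of 1 array ended some calls: that of Nupr1 without array 31, 33, 35, 41, 42 or 44 (adjusted p up to 0.0705), that of Txnrd1 in every such fit but the ones without array 34, 36, 37, 38, 39, 40 or 45 (adjusted p up to 0.0955), that of Txn1 in every such fit but the ones without array 31, 36, 37, 38, 39 or 43 (adjusted p up to 0.104) and that of Prdx2 without array 32, 33, 41 or 44 (adjusted p up to 0.0669). Taking the mean of a gene's probe sets ended the calls of Txnrd1, Txn1, Abcc1 and Prdx2, a fit to the 10 arrays alone those of Txnrd1 and Txn1, median centring of the arrays those of Txn1 and Prdx2 and testing the dim probe sets too that of Txn1. Nupr1, Txn1, Abcc1 and Prdx2 lost their calls with ribosomal centring.

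Carbonic anhydrases, which interconvert carbon dioxide and bicarbonate, changed in opposite directions by isoform. Car14, a membrane form facing the outside of the cell, read 7.31, 7.26, 7.08, 6.82 and 7.26 on the control arrays and 8.56, 8.48, 8.18, 8.62 and 7.98 on the antibody arrays. No values overlapped (log2 fold change 1.22 ± 0.15, adjusted p = 0.000735). Car12, another outward-facing form, read 6.95, 6.82, 6.7, 5.22 and 6.38 on the control arrays and 4.88, 5.45, 5.08, 4.72 and 5.37 on the antibody arrays. It was lower, at −1.31 ± 0.28 (adjusted p = 0.0146), with control 34 within the antibody values. Car4, the form anchored to the outer membrane by a lipid, was higher by 0.5 ± 0.12 (adjusted p = 0.0305). With Slc4a4 this made 3 rises and 1 fall among 14 genes. Of 31 ion channel and calcium cycling genes, Atp2a2, the calcium pump SERCA2, rose by 0.33 ± 0.068 (adjusted p = 0.0129) and Scn7a, a sodium-sensing channel of nerve and glia, was lower, at −0.78 ± 0.2 (adjusted p = 0.0406). Without control 34 the ion channel list had 1 member higher and 3 lower. The fits with 1 array left out ended calls: that of Car4 without array 32, 35, 41, 42, 43, 44 or 45 (adjusted p up to 0.0698) and that of Scn7a in every such fit but the ones without array 34, 36, 37, 39, 41 or 45 (adjusted p up to 0.109). Bringing the arrays to 1 median ended the call of Car4. Car12, Car4, Atp2a2 and Scn7a lost their calls with ribosomal centring.

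Adipokine and adipocyte identity genes were 4 higher and 3 lower of 29 (6 and 5 without control 34). Rbp4, the retinol carrier, read 10.73, 10.6, 10.83, 10.52 and 10.36 on the control arrays and 11.11, 11.36, 11.35, 11.37 and 10.98 on the antibody arrays (log2 fold change 0.63 ± 0.1, adjusted p = 0.00397). Lep, which encodes leptin, read 11.64, 11.16, 11.44, 10.68 and 11.35 on the control arrays and 10.13, 9.0, 9.59, 8.86 and 10.52 on the antibody arrays. Every antibody value lay below every control, yet the log2 fold change of −1.64 ± 0.55 did not pass (adjusted p = 0.103). Without FGF21 36 or FGF21 37 it passed. It passed too with only the 10 control and antibody arrays and with array weights. The same held with control 34 and FGF21 36 both left out, and with the 9 control and antibody arrays without control 34. Other filters, averaged probe sets, an offset, both centrings and the trend and robust options left it uncalled. Adipoq differed by 0.032 ± 0.051 (adjusted p = 0.796). Cebpa, a master factor of adipocyte differentiation, was lower, at −0.43 ± 0.1 (adjusted p = 0.0241). Med1, a Mediator subunit that links nuclear receptors to transcription, rose by 0.3 ± 0.064 (adjusted p = 0.016) and was called with Dio2 among 8 genes of thyroid hormone handling (2 and 2 without control 34). The call of Cebpa ended without any 1 of arrays 32, 33, 35, 41, 42, 43 and 45 (adjusted p up to 0.0684). Averaging all probe sets of a gene ended the call of Med1 and centring the arrays on their median that of Cebpa. Cebpa lost the call with ribosomal centring.

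Of 34 genes of BMP and TGF-beta signalling 3 rose and 2 fell (4 and 2 without control 34). Tgfbr2, the TGF-beta type II receptor, read 10.39, 10.5, 10.46, 10.92 and 10.24 on the control arrays and 9.73, 9.76, 9.79, 9.93 and 9.82 on the antibody arrays (log2 fold change −0.7 ± 0.11, adjusted p = 0.00229). Acvr1c, the activin receptor ALK7 of adipocytes, rose by 0.54 ± 0.11 (adjusted p = 0.0129). Of the inhibitory Smads, Smad7 was higher by 0.31 ± 0.076 and Smad6 was lower, at −0.62 ± 0.15. Of 38 Wnt and Notch genes 2 rose and 3 fell (2 and 4 without control 34). Hey1, a Notch target, rose by 0.69 ± 0.15 (adjusted p = 0.0202) and Notch4, an endothelial Notch receptor, by 0.44 ± 0.10 (adjusted p = 0.0204). Nrarp, which feeds back on Notch, was lower, at −0.42 ± 0.10, as were Dixdc1, a Wnt pathway protein, at −0.78 ± 0.13, and the Wnt receptor Fzd8, at −0.34 ± 0.092. When 1 array was left out, some calls ended: that of Smad7 without array 31, 33, 35, 41, 42 or 45 (adjusted p up to 0.0827), that of Smad6 without array 32, 33, 41, 42 or 43 (adjusted p up to 0.0667), that of Hey1 without array 35 or 42 (adjusted p up to 0.0538), that of Notch4 without array 33, 42, 43 or 44 (adjusted p up to 0.0589), that of Nrarp without array 32, 41 or 44 (adjusted p up to 0.0578) and that of Fzd8 in every such fit but the ones without array 34, 36 or 40 (adjusted p up to 0.116). Taking the mean of a gene's probe sets ended the calls of Notch4, Nrarp and Dixdc1, fitting only the 10 arrays those of Smad6 and Fzd8, median centring of the arrays those of Smad7, Smad6 and Fzd8 and dropping the filter on dim probe sets that of Fzd8. Acvr1c, Smad7, Smad6, Hey1, Notch4, Nrarp, Dixdc1 and Fzd8 lost their calls with ribosomal centring.

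Axon guidance and neurotrophin genes, which also act in vessels and fat, included Sorcs2 and Ntrk3 and had 3 rises and 4 falls among 36 (3 and 5 without control 34). Plxna1, a semaphorin receptor, read 8.39, 8.42, 8.45, 8.67 and 8.36 on the control arrays and 7.79, 7.8, 7.8, 7.96 and 7.79 on the antibody arrays. The antibody values were all below the controls (log2 fold change −0.63 ± 0.11, adjusted p = 0.00663). Ntn1, the guidance cue netrin-1, had a log2 fold change of −0.61 ± 0.16 (adjusted p = 0.0417). Sema3g, an endothelial semaphorin, rose by 0.52 ± 0.1 (adjusted p = 0.0113), and the ephrins Efnb1 and Efnb2 were higher by 0.29 ± 0.069 and 0.49 ± 0.13. Some calls ended in the fits without 1 array: that of Ntn1 in every such fit but the ones without array 34, 36, 37, 38, 39 or 45 (adjusted p up to 0.108), that of Efnb1 without array 31, 32, 35, 41, 43 or 44 (adjusted p up to 0.0673) and that of Efnb2 in every such fit but the ones without array 31, 34, 36, 37, 38 or 43 (adjusted p up to 0.103). A fit to the 10 arrays alone ended the call of Ntn1, bringing the arrays to 1 median those of Ntn1, Efnb1 and Efnb2 and testing the dim probe sets too those of Ntn1 and Efnb2. Ntn1, Sema3g, Efnb1 and Efnb2 lost their calls with ribosomal centring.

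The share called was 7.14% of endothelial and 12.5% of pericyte and smooth muscle markers, where that of all genes was 5.18%. The list means of both groups overlapped. Of 28 endothelial markers 2 rose and 0 fell (4 and 0 without control 34), with a median of 0.15 and list means of 8.55 to 8.84 in controls and 8.73 to 8.84 with the antibody. Differences were positive for 20 of them, but the largest was that of Aplnr, at −0.96, which was not called. Sox17, a transcription factor of arterial endothelium, read 8.09, 8.08, 8.29, 8.32 and 8.0 on the control arrays and 8.68, 8.75, 8.86, 8.86 and 8.77 on the antibody arrays (log2 fold change 0.63 ± 0.11, adjusted p = 0.0055), and S1pr1, the sphingosine phosphate receptor, was higher by 0.68 ± 0.17 (adjusted p = 0.0295). Of 16 pericyte and smooth muscle markers 0 rose and 2 fell. Mcam, an adhesion molecule of pericytes and endothelium (CD146), read 8.66, 8.61, 8.59, 8.83 and 8.35 on the control arrays and 7.73, 7.05, 7.16, 7.03 and 7.7 on the antibody arrays. No values overlapped (log2 fold change −1.28 ± 0.19, adjusted p = 0.00178). Cspg4 (NG2), also of pericytes, was lower, at −0.49 ± 0.11 (adjusted p = 0.0211). The mean of the pericyte list lay at 8.33 to 8.6 in controls and 8.09 to 8.6 with the antibody. Its most positive difference was that of Des, at 0.47, which was not called. Leaving out 1 array ended calls here: that of S1pr1 in every such fit but the ones without array 34, 36, 37, 38, 39 or 40 (adjusted p up to 0.0751) and that of Cspg4 without array 31, 32, 33, 41 or 43 (adjusted p up to 0.0595). Centring the arrays on their median ended the call of Cspg4. S1pr1 and Cspg4 lost their calls with ribosomal centring.

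Among immune cell lists 1 gene passed. Kit, the stem cell factor receptor that marks mast cells, read 6.06, 6.45, 6.22, 6.61 and 6.2 on the control arrays and 4.71, 5.56, 5.26, 5.25 and 5.06 on the antibody arrays. Every antibody value was below every control (log2 fold change −1.14 ± 0.15, adjusted p = 0.00117), but no other of the 14 mast cell and granulocyte markers passed. By limma 0 of 28 macrophage, 0 of 11 T, NK and dendritic and 0 of 7 B and plasma cell markers passed, with 2, 1 and 3 at an unadjusted p under 0.05. The B and plasma cell list, whose means did not overlap, had a median of −0.23, and 1 of its members was called without control 34, lower. The macrophage median was −0.077 and became 0.31 without control 34, where 1 marker was called higher and 1 lower. Of 21 fibroblast and progenitor markers F3, tissue factor, was the 1 called (−0.52 ± 0.13, adjusted p = 0.0295), and the median of −0.4 became −0.16 without control 34. Collagen and matrix genes had 1 rise, Sdc4, and 1 fall, Col12a1, of 45 (3 and 1 without control 34), and the median of −0.32 became −0.068 without that array. Fits that left out 1 array lost calls: that of F3 without array 32, 33, 41, 42 or 44 (adjusted p up to 0.0841). F3 lost the call with ribosomal centring.

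Skeletal muscle markers held 0 called genes of 30, with fold changes from −2.22 to 1.77 beside the wide spread between arrays given above. The lists of Schwann cell and nerve markers (16 tested), white adipocyte markers (13), interferon and antigen presentation genes (26) and cell cycle genes (28) held 0 by limma, with 4, 3, 0 and 1 at an unadjusted p under 0.05. Without control 34 the Schwann cell and nerve list had 1 lower member and the cell cycle list 1 higher. The cell cycle median was −0.2 and became −0.0023 without control 34. Cytosolic ribosomal proteins had a median of −0.13 (−0.03 without control 34), with Rpsa the 1 fall of 41 (−0.41 ± 0.076, adjusted p = 0.00773). A mean over the probe sets ended the call of Rpsa.

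The antibody and FGF21 arrays were set against each other for the genes that the antibody changed. They share the receptor but not the schedule: a lone dose of 10 mg/kg against 2 mg/kg per day. Of all genes 0.372%, or 49, differed between them by limma, and 9 of the 682 did, or 1.32%. Car14 had the smallest p of the 9. It read 6.71, 7.16, 6.54, 7.13 and 7.02 on the FGF21 arrays, all below the antibody arrays listed above, a difference of 1.45 ± 0.15 (antibody minus FGF21, adjusted p = 0.000614). Acsl3 was likewise higher with the antibody than with FGF21, by 0.58 ± 0.08 (adjusted p = 0.0068). Dusp4 and Sdc4 were lower with the antibody than with FGF21, with differences of −0.96 ± 0.13 (adjusted p = 0.0068) and −0.53 ± 0.10 (adjusted p = 0.04), although both rose against control.

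The other 5 were named for this difference after their values were seen. Tnfrsf12a, the receptor of the cytokine TWEAK, read 9.81, 10.0, 10.23, 9.12 and 9.69 in controls, 10.34, 10.27, 11.0, 9.73 and 10.78 with FGF21 and 8.59, 8.96, 8.98, 8.57 and 9.29 with the antibody. It was lower with the antibody than with FGF21, by a difference of −1.54 ± 0.24 (adjusted p = 0.0121). The membrane protein Tspan4, the biliverdin reductase Blvra and Elmod2, which acts on small GTPases, were lower too, with differences of −0.62 ± 0.1, −0.42 ± 0.082 and −0.4 ± 0.062 (adjusted p = 0.0225, 0.0438 and 0.0121). Mzt2, a component of the gamma-tubulin complex, was higher by 0.31 ± 0.062 than with FGF21 (adjusted p = 0.0474). A p above the threshold for the rest of the 682 genes does not show that both agonists act alike, and the count of 49 moved between 10 and 251 when 1 array was left out. Against control the 5 were called lower with the antibody, at −0.89, −0.57, −0.64, −0.45 and −0.25. Omission of 1 array ended some of these calls: that of Tnfrsf12a in every such fit but the ones without array 34, 36, 38, 39 or 45 (adjusted p up to 0.113) and that of Mzt2 in every such fit but the ones without array 34, 36, 37, 38, 39, 40 or 45 (adjusted p up to 0.0894). Averaging all probe sets of a gene ended the call of Tnfrsf12a, a fit to the 10 arrays alone that of Mzt2, centring the arrays on their median those of Tnfrsf12a and Mzt2 and testing the dim probe sets too that of Tnfrsf12a. Tnfrsf12a, Tspan4, Elmod2 and Mzt2 lost their calls with ribosomal centring.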

How the data were processed

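RNA of 15 brown fat samples was labelled with biotin and read on 1 array each, per the labels. The deposited values are probe set intensities on a linear scale (5.578 to 34652.3) that the authors made with RMA, per the submitters' processing notes; no version, genome build or batch is given in the sources used here. Log2 of the intensities was taken and not normalised further (array medians of the intensities 50.58 to 52.11). Precision is limited by how many arrays there are, since arrays have no read depth. Of 45101 probe sets, 34958 carry 1 gene symbol in the platform annotation, 932 several, and 9211 are unlisted and unnamed here; 34754 of the single-symbol probe sets matched RefSeq and 0 symbols needed updating. Each of 18194 genes was read from its probe set of highest average level, and the 5020 genes whose mean lay below 5.061 (log2), the 40th percentile over probe sets, were left out, so that 13174 were tested. A model of 3 groups was fitted to all 15 arrays with limma 3.58.1 in R 4.3.3 (lmFit, eBayes, 12 residual degrees of freedom, two-sided), with Benjamini-Hochberg adjustment over all genes and a threshold of 0.05. The script was tested on simulated data. The labels describe biological replicates, and no replicate number occurs in more than 1 group, so no samples were paired.

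57 gene lists (1664 genes, 1352 tested) were described by counts and medians; 136 members were called and 546 called genes are in no list. The members and lists were chosen with earlier results of these data known. Genes named are the 25 largest rises and 25 largest falls among called genes without overlap and without clone-like symbols, up to 6 called members a list by p, and a fixed set of brown fat, FGF and clock genes, of which Adrb3 had no probe set tested. Nr3c2, Ntn1, Pik3ca, Hspa4l, Dnaja2, Blvra, Elmod2, Mzt2, Tnfrsf12a and Tspan4 were named after their values were seen. Promoter windows came from RefSeq (GRCm38.p6). The alternatives tried were other filters, probe set rules, offsets, centrings, limma options, sets of arrays and leaving out each array.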

Additional observations from a re-analysis of the deposited data

Results flagged for a closer look

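An array was set apart when its value lay far from the other 4 of its group, by Dixon's test (gap over range above 0.71), over 372 groups of 5 values; 23 values stood out, and chance gives about 1 in 20 groups. Control 34 accounted for 10 of them. Its mean was 10.39 for collagens and matrix (other controls 8.84 to 9.25), 9.45 for fibroblast and progenitor markers (8.19 to 8.51) and 6.86 for T, NK and dendritic cell markers (6.03 to 6.26). Its value of the lone red blood cell marker tested was 6.12 (6.97 to 7.20). Among named genes it read 9.54 for Elovl3 (10.36 to 10.52), 8.94 for Rasd1 (9.72 to 9.98), 14.25 for Cidea (14.46 to 14.52), 12.84 for Slc25a3 (12.98 to 13.03), 8.72 for Mzt2 (8.97 to 9.06) and 7.79 for Matn2 (7.11 to 7.27).

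Of the antibody arrays, aFGFR1/KLB 45, the one with the highest muscle markers, was nearest to the controls for Sgk2 at 8.28, Slc4a4 at 11.82, Slc27a2 at 11.53, Decr2 at 7.81 and Sorcs2 at 6.44. aFGFR1/KLB 41 stood apart for Ntrk3 at 9.37, Ciart at 7.26 and Blvra at 9.66. aFGFR1/KLB 44 stood apart for Plxna1 at 7.96, Srebf1 at 11.48 and Fasn at 14.01. Control 35 stood apart for Pqlc3 at 7.90 and control 33 for Efnb1 at 8.72.

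Probe sets with several gene symbols or none were not used above. Of 4241 such probe sets above the filter, 134 changed with the antibody (limma, adjusted over all probe sets), 77 higher and 57 lower.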

How the results depend on the processing

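The count of 682 changed genes became 419 with arrays centred on their median, 181 with arrays centred on ribosomal protein genes, 2307 with array weights, and 1631 both with control 34 and FGF21 36 left out and with the 9 control and antibody arrays that remain without control 34, an alternative added after seeing the data. Median centring left 252 rises and 167 falls, weights 1108 and 1199. Leaving out 1 array gave 336 to 1140. The other settings (only the 10 arrays, other filters, averaged probe sets, an offset of 16, trend and robust options) gave 566 to 762 calls. The cause was not tested. The count between antibody and FGF21, 49, was 10 to 251 without 1 array and 87 with only the 10 arrays of those groups. The 160 called genes that are named were fitted 4152 times under the alternatives: the call held in 3486, was lost in 666 and was reversed in 0. Among named genes without a call, Fgfr1 turned to 0.070 with averaged probe sets and 0.017 with ribosomal centring, which also turned Scd1 to 0.032 and Dbp to 0.018. Without 1 array Dbp ranged from −0.21 to 0.017. Other probe sets of the called genes (607, of 348 genes) ran the same way in 534 and were called the same way in 194 and the opposite way in 0. No paired analysis was possible because no replicate number occurs in more than 1 group. Values near the array's floor or top can understate differences.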
